A study of Homo sapiens with 6 samples.

Results

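The 10 genes described here were grouped under the synthesis, recycling and breakdown of glutathione and the import of cystine for it. They were taken from the 16798 coding genes of the gene table by their symbols, GCLC, GCLM, GSS, GSR, SLC7A11, SLC3A2, CHAC1, CHAC2, GGT7 and GLRX, and all 10 were in the table. They were measured by bulk RNA-Seq of total RNA in COV434 cells, an immortalized human line labelled as granulosa cells (GCs), as 3 controls and 3 samples exposed to 15 µM 4HC for 24 h. 4HC is the active form of the chemotherapy drug cyclophosphamide (CTX), and the treated samples carry the name CTX in the labels. All 6 samples were of this 1 cell line, grown in DMEM with fetal bovine serum and antibiotics, and no genetic change was stated for either group. Whether the controls received a vehicle, and whether the 3 samples of a group were grown separately, is not given in the sources used here, so the p-values measure the spread between these samples, which may be technical.

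Glutathione is a tripeptide of glutamate, cysteine and glycine and the most abundant small thiol of animal cells. Glutamate-cysteine ligase joins the first pair of amino acids and is the rate-limiting enzyme, and glutathione synthetase adds the glycine. Cysteine enters many cultured cells as its oxidized dimer, cystine, in exchange for glutamate, and glutathione is spent by the peroxidase GPX4 when it reduces lipid peroxides, the step that fails in ferroptosis. In the ovary, glutathione of the GCs is also conjugated to reactive metabolites of CTX.

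Of the 10 genes, GSS and GGT7 were upregulated in 4HC-treated COV434 cells, and CHAC1 and SLC3A2 were downregulated. GSS rose 1.27-fold and GGT7 rose 1.17-fold, while CHAC1 fell to 0.729 and SLC3A2 to 0.923 of the control level. For both subunits of glutamate-cysteine ligase, for glutathione reductase, for the cystine exchanger chain SLC7A11 and for CHAC2, the adjusted p-value was 0.05 or more, and GLRX was too low to test. Expression was tested with edgeR's quasi-likelihood test on the expected counts, and p-values were adjusted by the Benjamini-Hochberg method over all 12368 genes that passed a filter on low counts. At the threshold of 0.05 for the adjusted p-value, edgeR called 4 of the 9 tested members (44.4%), beside 36.4% of all tested genes. The calls of GGT7 and SLC3A2 were lost with DESeq2, which called 2 members, and edgeR without the second 4HC sample also called 2. With 1 sample left out, edgeR called 3622 to 4246 of all genes, in place of 4497. The share of all genes called by DESeq2 is not given here. By direction in edgeR with all samples, 2 members were higher, beside 19.2% of all tested genes, and 2 were lower, beside 17.1%. The log2 fold changes of the 9 members ran from -0.46 to 0.35 with a median of 0.07, and the median over all tested genes was 0.00. No member was a DEG at a fold change of at least 2 with p under 0.05 in edgeR or in DESeq2. In edgeR, 1.15% of all tested genes were. An unadjusted p-value under 0.05 was given to 4 members by edgeR and to 3 by DESeq2. The share of all genes under that unadjusted threshold was not counted, so these counts have no background beside them.

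**Figure D1:**
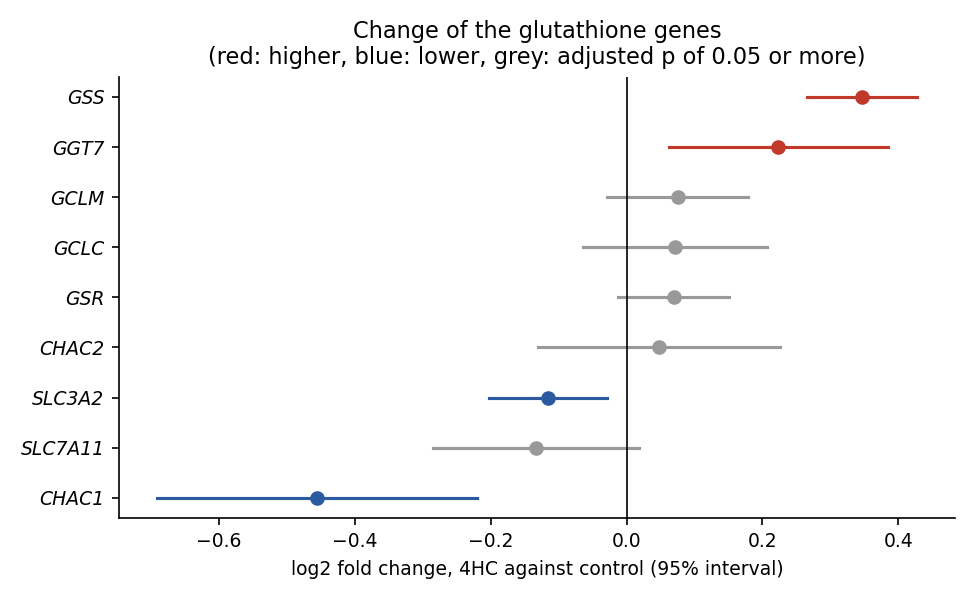
The horizontal axis gives the log2 fold change of 4HC against control from edgeR for the 9 tested members, with lines for the 95% interval and n = 3 samples per group. GSS at 0.35 and GGT7 at 0.22 lie above 0, CHAC1 at -0.46 and SLC3A2 at -0.12 lie below, and the intervals of the other 5 genes include 0.

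The libraries were of like depth, with 16133786 to 16702316 expected counts each, and the biological coefficient of variation was 0.0277. The label of the line was checked against 15 granulosa cell markers, 13 of which were in the table. Of these, 9 were under 1 CPM (counts scaled to TMM-normalized library size) in every sample. Among them were the defining markers FOXL2, FSHR, CYP19A1, NR5A1, STAR, INHBB and GATA4, at 0.185 CPM or less, so these transcripts were close to absent. INHBA reached at most 0.905 CPM and FST at most 0.308 CPM. INHA was at 0.483 to 1.17 CPM, AMH at 3.80 to 6.53 CPM and HSD17B1 at 12 to 15.5 CPM. WT1, which is not specific to granulosa cells, made up most of the summed marker level, which was 235 to 243 CPM in control and 189 to 195 CPM in 4HC, and WT1 itself fell by 0.35 on the log2 scale (adjusted p = 8.81e-12, edgeR). Of 7 markers of other ovarian cell types, 4 were under 1 CPM in every sample, and the list summed to 14.8 to 17.5 CPM in control and 15.5 to 20.0 CPM in 4HC, most of it from ZP3. The part of these levels in the results below was not tested, and in bulk RNA fewer cells of a type and less RNA per cell cannot be told apart.

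GSS codes for glutathione synthetase, the enzyme that completes the tripeptide. The gene (NCBI Gene 2937) lies on the minus strand of chromosome 20 (GRCh38, chr20:34928433-34956027). Its normalized level was 106, 107 and 110.5 CPM in the control samples and 140.0, 141 and 131 CPM in the 4HC samples. Each 4HC sample was above each control sample. The mean rose from 108 ± 2.12 to 137 ± 5.62 CPM (SD, n = 3), with a log2 fold change of 0.35 (SE 0.0403, 95% interval 0.27 to 0.43, adjusted p = 5.97e-10, edgeR). Of the expected counts of GSS, the transcript NM_000178 held 99.5% in control and 99.3% in 4HC, so a single transcript carried the rise.

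GCLC, the catalytic subunit of glutamate-cysteine ligase (NCBI Gene 2729, chr6:53497341-53616970, minus strand), was at 22.7, 21.5 and 24.0 CPM in control and at 24.3, 23.9 and 23.4 CPM in 4HC. The groups overlapped. The log2 fold change was 0.07 (SE 0.0676, adjusted p = 0.437, edgeR), with a 95% interval of -4.38% to 15.4% for the change in level. The transcript NM_001498 held 97.2 ± 2.49% of its expected counts in control and 92.6 ± 12.4% in 4HC, with overlapping groups. The third 4HC sample stood low at 78.2%, and the difference in share turned from -4.68 to 2.49 percentage points without it. The exons of GCLC overlap those of a non-coding RNA on the same strand and of an antisense RNA, and the strand setting of the library is not given in the sources used here, so their reads may not be fully separated.

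GCLM, the modifier subunit that raises the activity of the catalytic one, is NCBI Gene 2730 (chr1:93885205-93909456, minus strand). It was at 49.0, 49.9 and 54.1 CPM in control and at 52.3, 55.1 and 53.7 CPM in 4HC. The groups overlapped here too, through the third control sample. The log2 fold change was 0.08 (SE 0.0516, 95% interval -0.03 to 0.18, adjusted p = 0.265, edgeR). The main transcript NM_002061 held 80.2% of the expected counts in control and 83.7% in 4HC, and the predicted transcript XM_017001056 held 12.4% and 9.10%, with overlapping groups for both. Within a library, GCLM was at 1.66 ± 0.063 times the TPM (a level per transcript length and library size) of GCLC in control and at 1.65 ± 0.0551 times in 4HC. The log2 ratio of the subunits differed by -0.01 (exact two-sided permutation test, p = 0.8, n = 3 per group, where the smallest possible p is 0.1).

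GCLM is a classic target of NRF2, which binds the antioxidant response element together with small MAF proteins, while ATF4 binds the CEBP-ATF response element of genes of the amino acid response. Promoter windows of 300 bases, from 250 before to 50 after an annotated start site, were searched on both strands for the cores TGACNNNGC and TGATGNAA in the RefSeq table of GRCh38.p14. It held 10 windows for 7 of the members, and none for GSS, GSR and SLC7A11. The first core was in 2 of the 10 windows and in 13.3% of all 35116 windows, and the second in 2 of the 10 and in 3.62% of all. The matches were in GCLM, SLC3A2 and CHAC1, a gene that did not pass the test and a pair that fell. They describe letters and not binding. The 100 bases before a RefSeq start site of GCLM (chr1:93909431-93909530, minus strand) are shown. They hold the match to the antioxidant response element, on the opposite strand at -34 to -26, in capitals. The GENCODE start of GCLM lies within this stretch, at the last base of the match.
GCLM: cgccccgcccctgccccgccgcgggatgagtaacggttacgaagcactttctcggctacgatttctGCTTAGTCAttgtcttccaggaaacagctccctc

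For cystine import, the RNA of both chains of the exchanger called system xc- was measured, and not the import itself. SLC7A11, the light chain that carries cystine and glutamate (NCBI Gene 23657, chr4:138164097-138242349, minus strand), was at 19.8, 18.8 and 19.3 CPM in control and at 16.3, 18.0 and 18.5 CPM in 4HC. The 3 samples of 4HC lay below the 3 controls, by a narrow margin between the second control and the third 4HC sample. The mean was 19.3 ± 0.475 CPM in control and 17.6 ± 1.17 CPM in 4HC, with a log2 fold change of -0.13 (SE 0.0755, 95% interval -0.28 to 0.02) that did not pass the test (adjusted p = 0.17, edgeR). All its reads were assigned to 1 transcript, NM_014331, and its exons overlap those of SLC7A11-AS1 on the opposite strand.

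SLC3A2, the heavy chain (also known as CD98 or 4F2hc) that takes SLC7A11 and several other amino acid transporters to the cell surface, is NCBI Gene 6520 (chr11:62856102-62888875, plus strand). Its level was 97.1, 103 and 97.0 CPM in control and 96.1, 87.9 and 90.0 CPM in 4HC. The groups did not overlap, but the first 4HC sample was close to the lowest control. Its mean of 99.0 ± 3.35 CPM dropped to 91.4 ± 4.23 CPM with 4HC, and the log2 fold change was -0.12 (SE 0.0434, 95% interval -0.20 to -0.03, adjusted p = 0.0324, edgeR). The call was lost with DESeq2 (adjusted p = 0.0670), with library size as the only scaling (0.0856), with the replicate number as a block (0.0539), with limma on FPKM (0.114) and in edgeR without the second control (0.152), the second 4HC (0.173) or the third 4HC sample (0.0826), with SLC3A2 lower in 4HC each time. Of the SLC3A2 transcripts, NM_001013251 held 48.8% and 48.4% of the expected counts in control and 4HC, NM_002394 held 29.3% and 29.8% and NM_001012662 held 18.2% and 16.8%, and the groups overlapped for each.

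The window of SLC3A2 is shown because it held a match to each core, the antioxidant response element at -37 to -29, in capitals, and the CEBP-ATF core as TTACATCA at 38 to 45 bases after the same start site, outside the printed stretch. The stretch is chr11:62881599-62881698 (GRCh38.p14, plus strand), before 1 of the 3 start sites that the table gives for SLC3A2. It lies inside the GENCODE range of the gene.
SLC3A2: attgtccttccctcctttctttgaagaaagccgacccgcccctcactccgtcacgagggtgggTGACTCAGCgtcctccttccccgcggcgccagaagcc

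Per transcript length, the light chain was far below the heavy chain. The TPM ratio of SLC7A11 to SLC3A2 was 0.0365 ± 0.00205 in control and 0.0361 ± 0.00364 in 4HC, so SLC3A2 was at 26.3 to 29.3 times the TPM of SLC7A11 in the control samples and at 26.1 to 31.4 times in the 4HC samples. The groups overlapped, and the log2 ratio differed by -0.02 (exact two-sided permutation test, p = 1, n = 3 per group).

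Glutathione reductase, the product of GSR (NCBI Gene 2936), returns oxidized glutathione to its reduced form at the cost of NADPH. GSR was at 109.6, 107 and 108 CPM in control and at 118, 110.3 and 112 CPM in 4HC. The 4HC samples were above the controls, the lowest of them by less than 1 CPM. The mean was 108 ± 1.24 CPM in control and 114 ± 3.96 CPM in 4HC, and the log2 fold change of 0.07 did not pass the test (SE 0.0406, 95% interval -0.01 to 0.15, adjusted p = 0.183, edgeR). The transcript NM_000637 held 98.9% of the expected counts in both groups. GLRX, glutaredoxin 1, which uses glutathione to reduce protein thiols (NCBI Gene 2745, chr5:95751319-95823005, minus strand), had 1 expected count in the first control sample, 1 in the third 4HC sample and 0 in the other 4 samples. A count of 0 allows up to 3 counts, or 0.186 CPM at the lowest depth, for counting error only. GLRX was at or under that limit in every library, so no fold change is given.

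CHAC1 showed the largest fall among the 9 tested members. Its product is a cytosolic gamma-glutamylcyclotransferase that cleaves glutathione, and the gene is a well known target of ATF4 (NCBI Gene 79094, chr15:40952962-40956519, plus strand). CHAC1 was at 9.68, 8.0 and 10.2 CPM in control and at 7.42, 6.54 and 6.37 CPM in 4HC. Every 4HC sample was below every control sample. The mean was 9.29 ± 1.15 CPM in control and 6.78 ± 0.568 CPM in 4HC, and the log2 fold change was -0.46 (SE 0.117, 95% interval -0.69 to -0.22, adjusted p = 0.00164, edgeR). The expected counts of its main transcript NM_024111 were 144, 125 and 160.4 in control and 113, 84.3 and 91.0 in 4HC, without overlap. That transcript held 94.3 ± 2.51% of the counts of CHAC1 in control and 86.3 ± 6.21% in 4HC, with overlapping groups. The stretch from 250 to 151 bases before a RefSeq start site of CHAC1 (chr15:40953221-40953320, GRCh38.p14, plus strand) is shown. It holds the match to the CEBP-ATF core, on the opposite strand at -209 to -202, in capitals. That start site lies downstream of the GENCODE start of the gene, so the stretch is inside the gene range given above.
CHAC1: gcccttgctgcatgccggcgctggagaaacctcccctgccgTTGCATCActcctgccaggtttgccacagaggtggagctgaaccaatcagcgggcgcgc

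CHAC2, the paralog with low constitutive activity towards glutathione (NCBI Gene 494143, chr2:53767792-53775196, plus strand), was at 13.8, 14.5 and 17.4 CPM in control and at 14.0, 16.1 and 17.2 CPM in 4HC. The groups covered nearly the same range. The log2 fold change was 0.05 (SE 0.0889, 95% interval -0.13 to 0.23, adjusted p = 0.713, edgeR), and its sign turned when the first control or the third 4HC sample was left out, to -0.02 each time. Its transcript NM_001008708 held 88.0% and 90.8% of the counts in control and 4HC and NM_001346127 held 12% and 9.24%. The TPM ratio of CHAC1 to CHAC2 was 0.550, 0.449 and 0.469 in the control samples and 0.415, 0.287 and 0.281 in the 4HC samples. Each 4HC sample was below each control sample, and the log2 ratio was lower by 0.60 in 4HC (difference -0.60, exact two-sided permutation test, p = 0.1, n = 3 per group), the smallest p that this design allows.

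**Figure D2:**
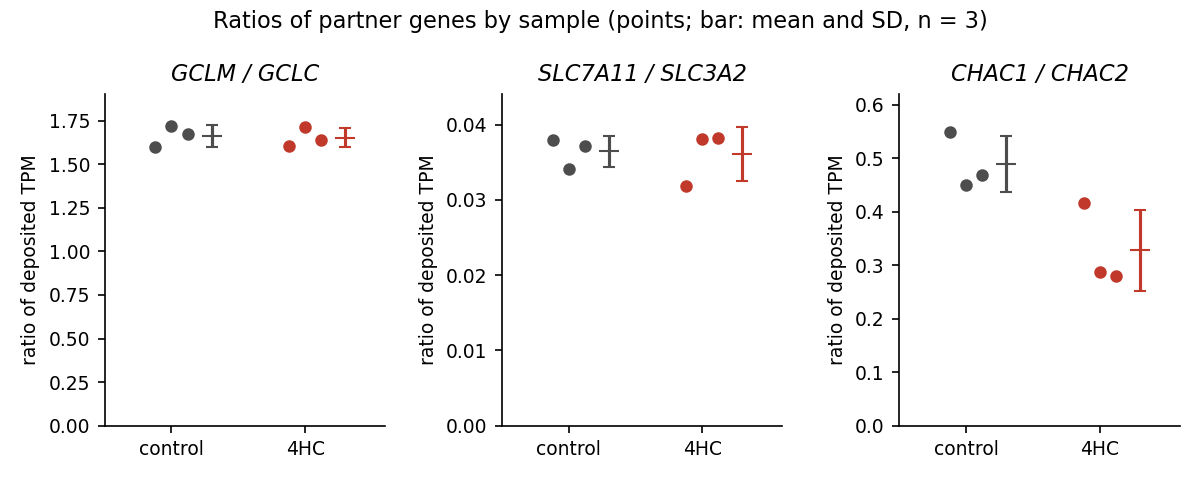
The vertical axes, which start at 0, give the ratio of deposited TPM between partner genes within each of the 6 samples, with the mean and SD of 3 samples per group. The ratios of GCLM to GCLC and of SLC7A11 to SLC3A2 overlap between the groups, while the ratio of CHAC1 to CHAC2 is 0.489 ± 0.0532 in control and 0.328 ± 0.0761 in 4HC without overlap.

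GGT7 belongs to the gamma-glutamyltransferases, the family of surface enzymes that break down glutathione outside the cell (NCBI Gene 2686, chr20:34844720-34872860, minus strand). Whether its own product acts on glutathione was not measured here. Its level was 14.8, 15.8 and 14.2 CPM in control and 16.8, 18.2 and 17.3 CPM in 4HC. The lowest 4HC sample was above the highest control. The deposited range of GGT7 overlaps that of its neighbour ACSS2, and whether reads were shared was not tested. GGT7 rose from a mean of 14.9 ± 0.828 CPM to 17.4 ± 0.713 CPM, and the log2 fold change was 0.22 (SE 0.0803, 95% interval 0.06 to 0.39, adjusted p = 0.0243, edgeR). The call was lost with DESeq2 (adjusted p = 0.137) and in edgeR without the first control (0.0667), the third control (0.119) or the second 4HC sample (0.109).

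The reads of GGT7 were spread over 7 transcripts by the authors' estimate. NM_178026, the main one, had a mean of 154 expected counts in control and 157 in 4HC, or 62.8 ± 12.7% and 54.9 ± 9.44% of the gene. The predicted transcript XM_011528783 had 27.7, 0 and 17.5 expected counts in control and 53.6, 62.6 and 30.3 in 4HC. The predicted transcript XM_017027811 had 48.6, 40.3 and 21.1 in control and 68.4, 57.6 and 58.2 in 4HC. Both predicted transcripts were higher in each 4HC sample than in each control sample, but their shares of the gene overlapped between the groups. These splits are estimates from shared exons and were not tested.

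**Figure D3:**
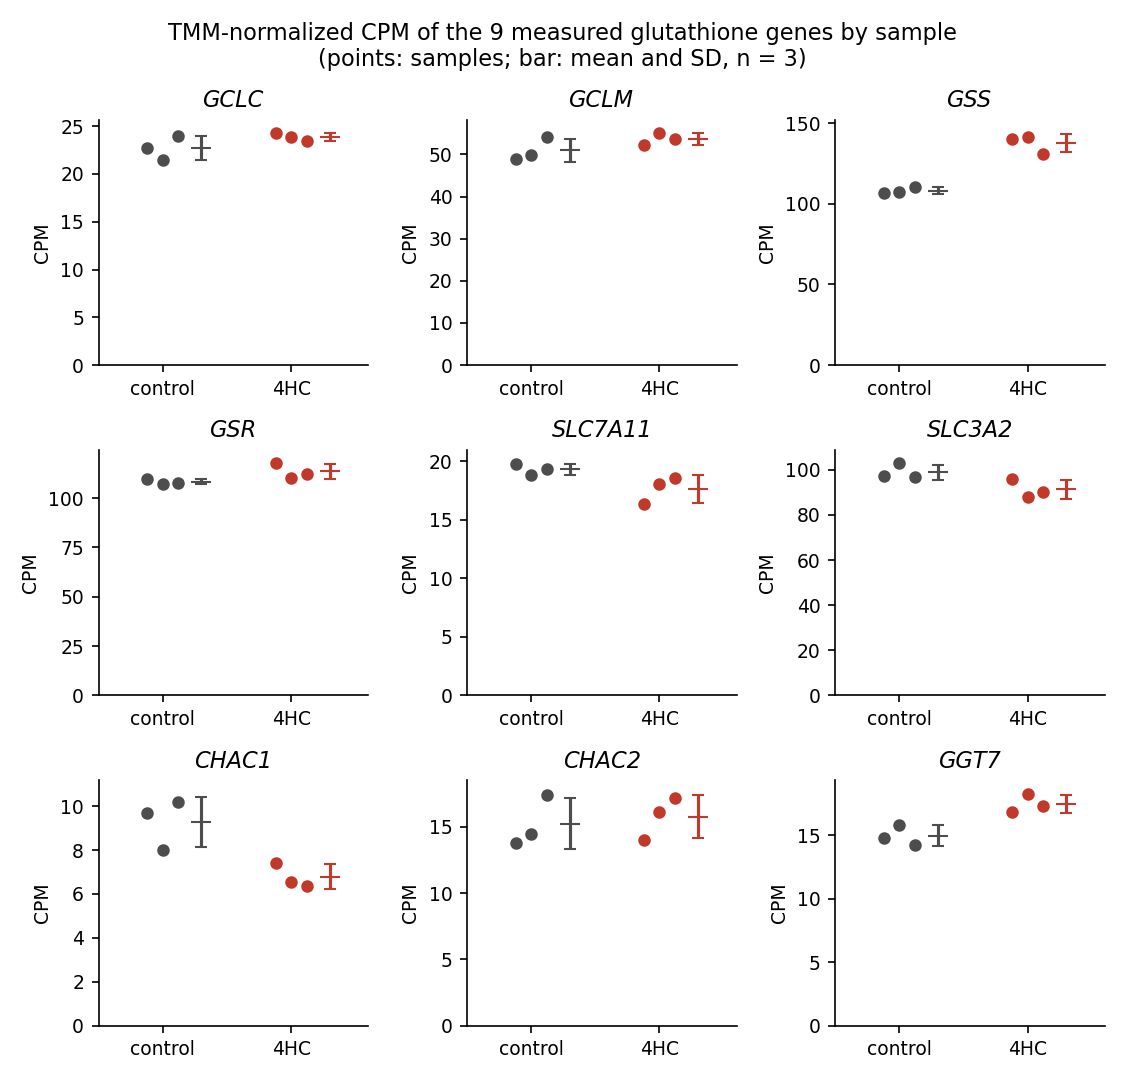
The vertical axes, which start at 0, give the TMM-normalized CPM of each of the 9 tested members in the 3 control and 3 4HC samples, with the mean and SD beside the points. The groups do not overlap for GSS, GSR and GGT7, which are higher in 4HC, or for SLC7A11, SLC3A2 and CHAC1, which are lower. They overlap for GCLC, GCLM and CHAC2. Among all tested genes, 45.3% had groups without overlap.

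Without overlap between the groups were 6 of the 9 tested members, beside 45.3% of all tested genes. Of the 6, 3 lay above and 3 below the controls, beside 2900 above and 2707 below among all 12368 tested genes. On the per-length TPM scale, the levels of the 9 tested members in the control samples ran from 104 ± 2.63 for GSS to 3.23 ± 0.0971 for SLC7A11. Behind GSS came SLC3A2 at 88.6 ± 2.43, GSR at 61.6 ± 0.93, CHAC2 at 23.3 ± 3.11 and GCLM at 16.9 ± 0.982 TPM, each above the next in every control sample. CHAC1 at 11.3 ± 1.38, GGT7 at 10.9 ± 0.532 and GCLC at 10.2 ± 0.646 TPM had overlapping ranges. CHAC1 was above GCLC within each control sample, while the place of GGT7 beside them changed between the control samples. In the 4HC samples these 3 genes were apart, with GGT7 at 12.8 to 14.0, GCLC at 10.5 to 10.9 and CHAC1 at 6.96 to 8.89 TPM, so CHAC1 was there below GCLC. The synthetase GSS was therefore the highest of the members in both groups, at 132 ± 5.38 TPM in 4HC, while the catalytic subunit of the rate-limiting enzyme stood near the lower end.

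**Figure D4:**
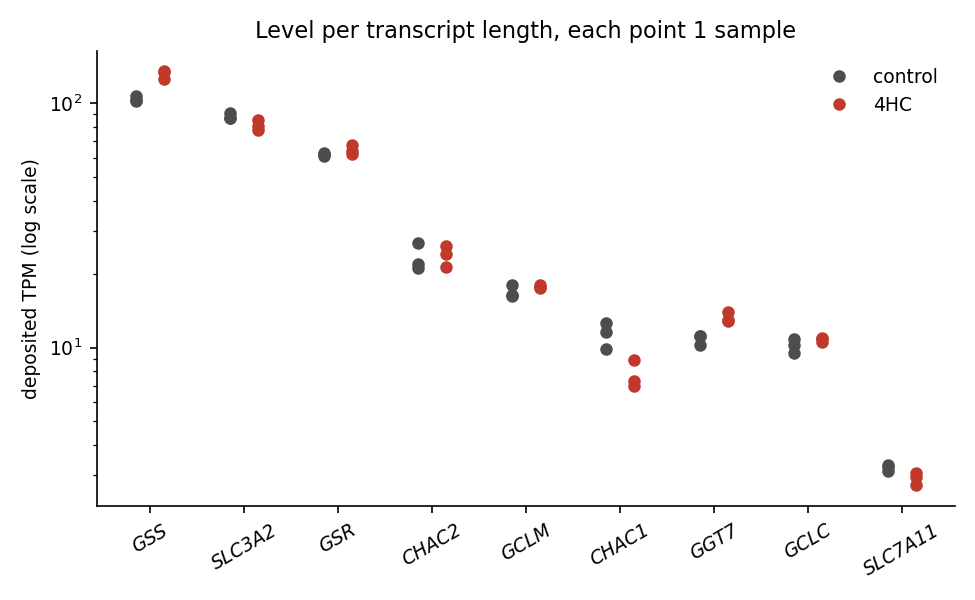
The vertical axis gives deposited TPM on a log scale, each point is 1 sample, and the 9 tested members are ordered by their mean in control. GSS, SLC3A2 and GSR lie between 60.6 and 135 TPM, and SLC7A11 lies lowest at 2.73 to 3.31 TPM. The ranges of CHAC1, GGT7 and GCLC overlap in control and are separate in 4HC.

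The surrounding pathway was examined in 6 lists of 57 genes, of which 53 were in the table and 46 were tested. In edgeR, 11 of them were higher and 9 were lower past the same threshold (43.5% of those tested, beside 36.4% of all tested genes), and the median log2 fold change was 0.01. None of the lists was tested as a set.

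The supply of cysteine and methionine had 12 tested genes, the most of the 6 lists, of which 5 were lower and 1 was higher, beside 17.1% lower and 19.2% higher among all tested genes, and a median log2 fold change of -0.06. SLC7A5, a light chain of SLC3A2 that imports large neutral amino acids such as methionine and leucine, was at 157, 163 and 153 CPM in control and at 128, 123 and 119 CPM in 4HC (log2 fold change -0.35, SE 0.039, adjusted p = 1.91e-10, edgeR). SLC1A5, the main glutamine importer, fell from 151 ± 1.91 to 126 ± 3.59 CPM (log2 fold change -0.26, adjusted p = 1.64e-07), and SLC1A4, an importer of serine, alanine and cysteine, from 45.7 ± 0.888 to 38.8 ± 1.57 CPM (-0.24, adjusted p = 0.000446). The 3 genes with the largest changes in this list were thus amino acid importers, and all 3 were lower in every 4HC sample than in any control.

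The median log2 fold change of 7 tested genes for the use of cysteine outside glutathione was -0.01. Of these genes, 1 rose and 1 fell (28.6%, beside 36.4% of all tested genes). Both belong to the synthesis of coenzyme A. PANK1, a pantothenate kinase that catalyses its first step, rose from 23.6 ± 0.589 to 32.3 ± 1.64 CPM (log2 fold change 0.45, adjusted p = 7.81e-08, edgeR), and COASY, the enzyme of its last steps, fell from 63.9 ± 0.653 to 56.1 ± 4.30 CPM (-0.19, adjusted p = 0.00249).

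The list of breakdown and the gamma-glutamyl cycle had 4 tested genes and a median log2 fold change of 0.10. Of the 4, 2 were higher (50% called, beside 36.4% of all tested genes). GGCT, which opens gamma-glutamyl amino acids, rose from 69.7 ± 1.85 to 79.5 ± 4.50 CPM (log2 fold change 0.19, adjusted p = 0.00107, edgeR). GGT1, the main gamma-glutamyltransferase, was at 2.59, 2.77 and 1.87 CPM in control and at 5.01, 4.81 and 3.86 CPM in 4HC (log2 fold change 0.92, SE 0.18, adjusted p = 4.45e-05). The groups were well apart, but GGT1 has near-identical copies in the genome that can share its reads, and its value is uncertain for that reason.

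For other glutaredoxins and the mitochondrial import of glutathione, the median log2 fold change was -0.01. Of 5 tested genes, 2 rose (40% called, beside 36.4% of all tested genes). The 2 were the mitochondrial carriers, SLC25A39, the established glutathione importer, from 173 ± 6.31 to 187 ± 5.60 CPM (log2 fold change 0.12, adjusted p = 0.00991, edgeR), and its paralog SLC25A40, from 31.1 ± 2.47 to 38.6 ± 3.50 CPM (0.31, adjusted p = 8.97e-05). The call for SLC25A39 was lost without the third control sample (adjusted p = 0.0986) or the first 4HC sample (0.0819).

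The supply of NADPH to glutathione reductase had 2 genes higher and 2 lower of 8 tested (50%, beside 36.4% of all tested genes). The median log2 fold change was 0.01. The cytosolic isocitrate dehydrogenase IDH1 fell from 67.6 ± 2.53 to 53.4 ± 0.768 CPM (log2 fold change -0.34, adjusted p = 1.12e-07, edgeR), while the mitochondrial IDH2 rose from 139 ± 2.81 to 170.1 ± 1.59 CPM (0.29, adjusted p = 8.2e-09). NNT, which makes NADPH in the inner mitochondrial membrane, was at 32.7, 28.5 and 28.5 CPM in control and at 35.2, 32.7 and 37.3 CPM in 4HC (0.23, adjusted p = 0.00313). The second 4HC sample of NNT was just below the highest control.

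Of 10 regulators of the members, all tested, 3 rose and 1 fell (40%, beside 36.4% of all tested genes). The median log2 fold change was 0.12. ATF4, the transcription factor of the amino acid response, was at 345, 342 and 334 CPM in control and at 287, 278 and 291 CPM in 4HC, without overlap (log2 fold change -0.26, SE 0.0331, adjusted p = 1.04e-08, edgeR). KEAP1, the adaptor that sends NRF2 to degradation, rose from 82.1 ± 2.44 to 98.4 ± 5.18 CPM (0.26, adjusted p = 4.03e-06). MAFF, a small MAF protein, rose from 6.53 ± 0.22 to 8.45 ± 0.793 CPM (0.37, adjusted p = 0.0106), a call that was lost with DESeq2 (adjusted p = 0.0775) and in edgeR without the second 4HC sample (0.0595). DDIT3, the third that rose, went from 20.4 ± 1.37 to 24.2 ± 0.839 CPM (0.25, adjusted p = 0.00376, edgeR). ATF3 (0.21, adjusted p = 0.395) and TRIB3 (0.11, adjusted p = 0.349) did not pass the test in edgeR. The log2 fold change was positive for 8 of the 10 regulators and negative for 2, ATF4 and NFE2L2. NFE2L2, the gene of NRF2, was at 129.6 ± 2.52 CPM in control and 123 ± 2.33 CPM in 4HC, without overlap. Its log2 fold change of -0.07 did not pass the test (adjusted p = 0.13, edgeR).

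**Figure D5:**
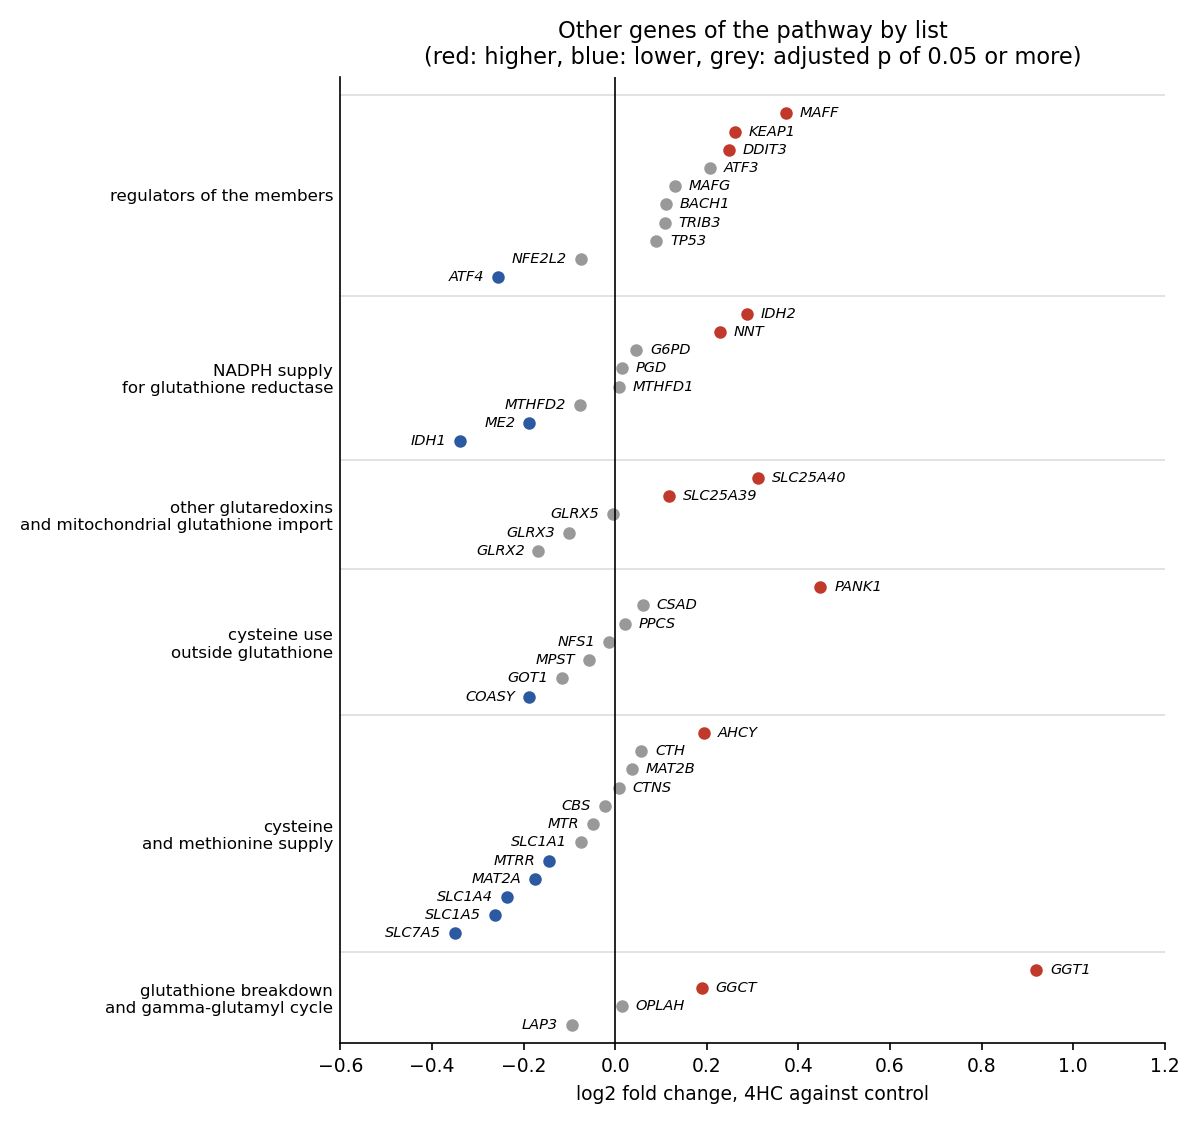
The horizontal axis gives the log2 fold change of 4HC against control for the 46 tested genes of the 6 other lists, 1 point a gene. The 11 genes that rose are red, from SLC25A39 at 0.12 to GGT1 at 0.92, the 9 that fell are blue, down to SLC7A5 at -0.35, and the 26 others are grey.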

How the data were processed

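Bulk RNA-Seq of COV434 cells, 3 control and 3 4HC samples, was analysed, with groups and replicate numbers taken from the labels. Reads were filtered by the authors with SOAPnuke and processed in the Dr. Tom system. The submitters' processing notes also list HISAT2, Bowtie2, RSEM 1.3.1, DESeq2 1.4.5 and GRCh38.p13. The authors deposited an expected count per gene and transcript, not normalized. Of the expected counts of genes, zeros included, 85.5% were exactly whole as deposited, with no tolerance. TPM, as deposited, is scaled to transcript length and sums to 1000000 in each sample. FPKM, as deposited, is scaled to length and to the size of the library. Columns with the authors' own log2 fold changes, p-values and q-values were not used, nor was a second gene table with the same values.

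Expected counts were rounded, and edgeR 4.0.16 under R 4.3.3 gave the main test (TMM normalization, filterByExpr, quasi-likelihood test, condition as the only term, Benjamini-Hochberg adjustment over 12368 genes). Tables and plots were made with pandas 2.3.3 and matplotlib 3.10.9 under Python 3.11.15. DESeq2 1.42.0 and limma 3.58.1 were alternative tools, the latter on log2 of deposited TPM or FPKM plus a pseudocount of 1 (for TPM also 0.1). In edgeR, the scaling was changed to DESeq2's size factors or to library size alone, the filter was dropped or set to at least 10 counts per sample, the replicate number was added as a block, and each sample was left out once. Ratios were compared with an exact permutation test. The test was checked on simulated counts of 12288 genes, where 85% of 100 genes changed by 0.5 on the log2 scale and 100% of 98 genes changed by 1.5 were recovered, and 4.19% of the calls were unchanged genes. Only these few genes were changed, and all genes shared the same biological coefficient of variation. No change below 0.5 was simulated, so recovery at the smaller sizes of the called members was not checked.

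The members, gene lists, markers and motifs were chosen with earlier results of these data known. The text names all members, up to 3 genes per other list with the largest absolute log2 fold change among those called, the markers, and member transcripts with at least 10% of a gene's counts. The regulators DDIT3, ATF3, TRIB3 and NFE2L2 were added after their values were seen. The granulosa cell markers AMHR2 and CYP11A1 were looked up by symbol and were not in the gene table, so they were not analysed. Gene coordinates and strands came from GENCODE release 29, because the strand in the deposited table differed from it for 4 of the 10 members, and promoter sequences from RefSeq. Replicates differed by more than sampling noise, with a chi-square per gene of 1.70 to 2.47.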

Additional observations from a re-analysis of the deposited data

How the results depend on the processing

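GSS stayed higher and CHAC1 lower, past the threshold, under every alternative run. With 1 sample left out, the log2 fold change of GSS was between 0.32 and 0.38 and that of CHAC1 between -0.55 and -0.38. SLC3A2 lost its call with DESeq2 (-0.12), library size as the only scaling (-0.0945), the replicate block (-0.12) and limma on FPKM (-0.0947), and lay between -0.16 and -0.0880 with 1 sample left out. GGT7 lost it with DESeq2 (0.22), and lay between 0.19 and 0.27 with 1 sample left out. CHAC2 had no call and changed sign (-0.0207 to 0.16). Of the members, DESeq2 called 2, and 2 to 4 were called with 1 sample left out, beside 3622 to 4246 of all genes. The same-numbered samples did not deviate together (correlations of 0.00866, 0.0694 and 0.0302), so the replicate numbers were not read as pairs, and the block changed no other member's call. With the replicate block 4213 of all genes were called in place of 4497. The share of NM_001498 in GCLC differed by -8.39 to 2.49 percentage points with 1 sample left out. The log2 ratio of GCLM to GCLC changed sign on expected counts (0.00392) and with 1 sample left out (-0.0389 to 0.0156), as did SLC7A11 to SLC3A2 (-0.0648 to 0.0685), while CHAC1 to CHAC2 kept its sign (-0.78 to -0.50). Of the markers, AMH (-0.16 to 0.22), INHA (-0.64 to 0.000745), HSD17B1 (-0.12 to 0.0566) and PTPRC (-0.19 to 0.40) changed sign with 1 sample left out, and HSD17B1 also with library size only (0.0140) and limma on FPKM (0.0169). Over all genes, 142 passed the fold change of at least 2 with p under 0.05, with 324 without a filter, 83 at a minimum of 10 counts, 37 with limma on TPM and 30 on FPKM, each plus a pseudocount of 1. The cause of these changes was not tested. The counts of GLRX and of the minor transcripts of GGT7 were low, and groups of 3 were not tested for a sample far from the others.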

Other observations

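The following genes were chosen after their values were seen and are given as values. GGT7 and GSS, the members that rose, lie 55572 bases apart on chromosome 20. Between 200000 bases before the first and after the second, GENCODE release 29 places 10 genes of the table, of which 8 were tested, edgeR called 3 higher and 1 lower in 4HC (adjusted p threshold of 0.05), beside 19.2% higher and 17.1% lower among all tested genes, and 2 of the 3 are GSS and GGT7, around which the stretch was drawn. PIGU, a subunit of the enzyme that attaches GPI anchors, was the third that rose, with a log2 fold change of 0.15 (adjusted p = 0.0179). NCOA6, a transcriptional coactivator, fell by 0.18 on the log2 scale (adjusted p = 0.00413). In the deposited ranges, ACSS2 (from 34872146) overlaps GGT7 (to 34872857), and MYH7B (from 34955836) overlaps GSS (to 34956027). Whether reads were shared there was not tested. ACSS2, the cytosolic acetyl-CoA synthetase gene that lies mostly between GGT7 and GSS, had a log2 fold change of 0.10 (95% interval -0.01 to 0.21, adjusted p = 0.155, edgeR). It did not pass the threshold, and its change was not compared with those of GGT7 and GSS.

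SLC3A2 is the heavy chain for several light chains, and their levels differed widely. Per transcript length, SLC7A5 was the highest at 58.2 ± 1.26 TPM in control and 45.3 ± 1.98 TPM in 4HC. SLC7A6, which exchanges cationic and neutral amino acids, was at 18.1 TPM in control and 18.5 TPM in 4HC, with a log2 fold change of 0.04 in CPM (adjusted p = 0.579, edgeR). The cystine carrier SLC7A11 was at 3.23 and 2.93 TPM, and SLC7A7 and SLC7A8 were at 0.21 TPM or less in every sample. Of these light chains, SLC7A5 passed the test and fell, and SLC7A11 and SLC7A6 did not pass it.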
